A study of Homo sapiens with 4 samples.

Results

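The keratin genes examined here are the 48 genes of the human keratin family that had a probe with exactly 1 gene symbol on Affymetrix Human Gene 1.0 ST arrays, out of 18377 genes measured in that way. They were taken by symbol alone, as KRT followed by a number and at most 1 letter from A to C, so that pseudogenes and the keratin-associated proteins of hair (KRTAP genes) stayed out. RNA came from Huh7, an established human hepatocellular carcinoma line, sorted by flow cytometry into CD133+ and CD133- cells in one sort and into ALDH+ and ALDH- cells in the other. CD133 is a surface glycoprotein encoded by PROM1, and ALDH stands for aldehyde dehydrogenase. Each of the 4 fractions was measured on 1 array, and the series sets the marker-positive cells, as cancer stem cells, against the marker-negative ones. A single line was used, and the sources used here name no separate cultures, so no value below has a replicate error and none has a test. Within each sort, called the CD133 and the ALDH comparison below, a difference is the log2 value of marker-positive cells less that of marker-negative cells.

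Keratins are the intermediate filament proteins of epithelial cells. An acidic type I keratin always pairs with a basic type II keratin, and the pair in use differs between epithelia, which is why keratins serve to name the origin of carcinomas. Hepatocytes make KRT8 and KRT18 only, bile duct cells and hepatic progenitors add KRT7 and KRT19, and KRT20 belongs to the intestinal epithelium. Most of the remaining keratins build stratified epithelia such as epidermis, the hair follicle and the hair shaft.

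RefSeq lists 55 human keratin genes under this naming. KRT6A, KRT6B, KRT6C, KRT17, KRT81, KRT82 and KRT86 had no probe of their own and were not analysed here. The 48 measured genes comprised 27 type I and 20 type II keratins and KRT222, which was given no type. All 48 matched a current RefSeq gene, 21 of them on chromosome 12 and 27 on chromosome 17, where the keratin gene clusters lie. KRT18, KRT39 and KRT40 had more than 1 probe, and the probe with the highest mean stood for the gene. Probes differ in brightness for reasons other than RNA amount, so levels are compared between arrays and not between genes.

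The median of all values on the 4 arrays, a log2 value of 4.98, was used as a floor, since the files give no detection call. The mean of 8 keratins over the 4 arrays reached it: KRT8, KRT13, KRT14, KRT16, KRT18, KRT19, KRT23 and KRT33B. The other 40 had means below it, and 37 of the 48 were below it on every array. Of all 18377 genes, 7152 had means below it. Most keratins are therefore dim features here, whose differences are uncertain. A difference of bulk RNA values does not separate fewer cells that carry a transcript from less of it per cell.

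The arrays correlated at 0.982 to 0.989 over all probes, and their median log2 values ran from 4.92 (CD133-) to 5.04 (ALDH+). PROM1 followed its sort, at 9.0 in CD133+ and 5.32 in CD133- cells, and stood at 7.11 in ALDH+ and 8.39 in ALDH- cells. ALDH1A1 was at 11.14 in ALDH+ and 11.10 in ALDH- cells, so it does not check the ALDH labels. Of 10 hepatocyte markers 7 had means at or above the floor, among them ALB and APOA1, while CPS1, CYP3A4 and TAT lay below it. Of 10 measured keratinocyte markers 2 did, SFN and CALML5. Summed as linear values, the 10 keratinocyte markers came to 281.5 in CD133+, 276.7 in CD133-, 310.7 in ALDH+ and 277.7 in ALDH- cells.

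The upstream sequence of KRT20 and KRT8 is shown because these genes represent the intestinal and the hepatocyte keratins and have an entry in the RefSeq promoter table used here (build GRCh38.p14). Each run is the 250 bases before the listed start site, 5′ to 3′ on the gene's strand. KRT20 lies on the minus strand at chr17:40885243-40885492 and KRT8 on the minus strand at chr12:52926470-52926719. Capitals mark a match to TTTATG, a core of sites of the intestinal CDX factors, or to TATAAA, the TATA box, on either strand.
KRT20: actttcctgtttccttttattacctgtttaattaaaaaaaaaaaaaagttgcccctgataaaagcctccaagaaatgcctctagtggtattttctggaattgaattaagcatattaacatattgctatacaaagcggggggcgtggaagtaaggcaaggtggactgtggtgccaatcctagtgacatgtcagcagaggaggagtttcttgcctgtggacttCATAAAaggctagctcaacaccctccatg
KRT8: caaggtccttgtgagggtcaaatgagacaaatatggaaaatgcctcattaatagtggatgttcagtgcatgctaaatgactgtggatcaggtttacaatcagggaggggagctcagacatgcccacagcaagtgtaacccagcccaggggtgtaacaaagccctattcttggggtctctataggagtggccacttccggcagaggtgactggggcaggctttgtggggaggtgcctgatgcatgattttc
The KRT20 window held 1 match, CATAAA, which is TTTATG read on the other strand and starts 29 bases before the listed start. The KRT8 window held 0 matches to either motif. Among 35097 windows of this length in the table, TTTATG was present in 9.64% and TATAAA in 10.7%. Of 37 keratin windows, from 33 of the 48 genes, 18 held TTTATG and 20 held TATAAA. Of the 17 keratin genes with TTTATG, all but KRT20 were keratins of stratified epithelia and hair. A match is a run of letters and shows no binding.

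By their highest-mean probes, the hepatocyte pair hardly differed between positive and negative cells in either comparison. KRT8 had log2 values of 12.05 in CD133+ and 11.82 in CD133- cells, and of 11.62 in ALDH+ and 11.65 in ALDH- cells. KRT18 had 11.80 in CD133+ and 11.67 in CD133- cells, and 11.48 in ALDH+ and 11.69 in ALDH- cells. The differences were 0.23 and 0.14 in the CD133 comparison and -0.03 and -0.20 in the ALDH comparison. By these probes both partners of the filament differed by little and in the same direction within a comparison. KRT8 was highest in CD133+ and lowest in ALDH+ cells, as was KRT18 by this probe.

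The value of KRT18 depends on its probe. The brighter of its 2 probes, used above, sits among probes of another chromosome: the 20 annotated probes next to it in the order of probe identifiers all belong to genes of chromosome 9, whereas KRT18 lies on chromosome 12. The other probe has 18 of its 20 neighbours on chromosome 12. That second probe gave 9.96 in CD133+ and 9.40 in CD133- cells, a difference of 0.56, and 9.79 in ALDH+ and 9.78 in ALDH- cells, a difference of 0.01. By the second probe KRT18 was lowest in CD133- cells and did not share the negative sign of KRT8 in the ALDH comparison. Both probes put KRT18 short of 2-fold in both comparisons, the threshold used for counts here. KRT18 has many processed pseudogenes, and how far they share signal with either probe was not tested. Another probe, listed under the 2 symbols MIR622 and KRT18 and assigned to neither, gave differences of 0.18 (CD133) and -0.19 (ALDH).

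**Figure D1:**
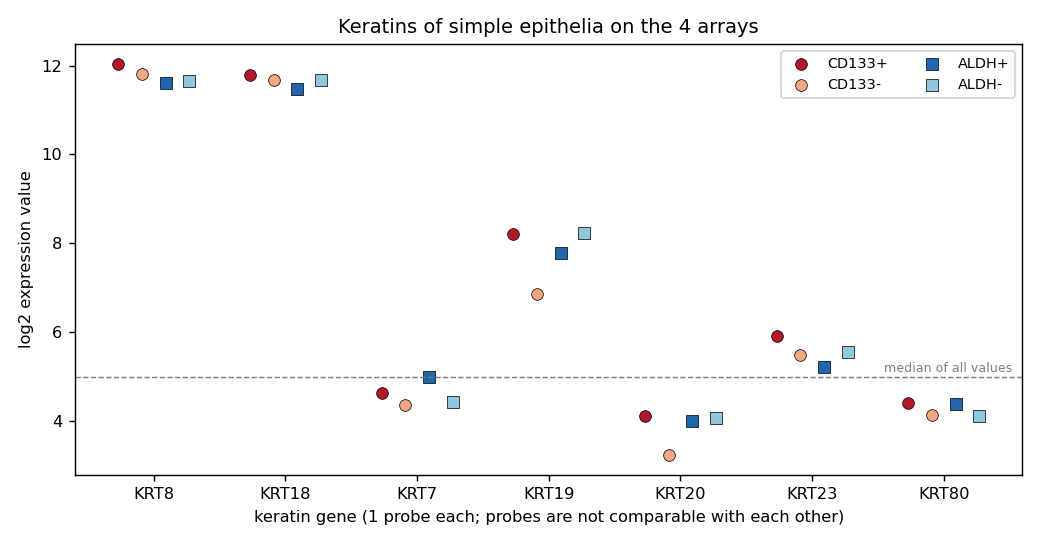
Log2 expression values (vertical axis) of 7 keratins on the 4 arrays, 1 point per array. Circles are the CD133 comparison and squares the ALDH comparison, and the dashed line is the median of all values, 4.98. KRT8 and KRT18, the latter by its brighter probe, stay within 0.43 over the arrays. KRT19 and KRT20 are low in CD133- cells alone, and KRT20 lies under the dashed line on every array. The other KRT18 probe, not drawn, was also lowest in CD133- cells.

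Of the bile duct pair, only KRT19 differed strongly. KRT19, a type I keratin without a tail domain that is also used to mark progenitor-like liver tumours, had log2 values of 8.20 in CD133+ and 6.85 in CD133- cells, a difference of 1.34 or 2.54-fold. In the other comparison it had 7.78 in ALDH+ and 8.22 in ALDH- cells, a difference of -0.44. The other 3 arrays thus lay within 0.44 of each other, and CD133- cells 0.93 below the lowest of them. KRT19 was well above the floor on all 4 arrays. Its difference in the CD133 comparison was the 45th highest of 18377 genes.

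KRT7, the type II partner of KRT19 in bile ducts, did not accompany it. Its log2 values were 4.63 in CD133+ and 4.36 in CD133- cells, and 4.98 in ALDH+ and 4.42 in ALDH- cells. The differences were 0.27 and 0.56, the second opposite in sign to that of KRT19. KRT7 lay at or under the floor on every array, so these differences are uncertain. A further probe, listed under the 2 symbols MIR492 and KRT19P2 and assigned to neither, gave 5.60 in CD133+ and 4.50 in CD133- cells, and 5.62 in ALDH+ and 5.33 in ALDH- cells.

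KRT20, whose upstream sequence is printed above, shared its lowest array, CD133-, with KRT19 at a dim level. Its log2 values were 4.10 in CD133+ and 3.22 in CD133- cells, a difference of 0.88. They were 4.0 in ALDH+ and 4.05 in ALDH- cells, a difference of -0.05. The CD133- array was 0.78 below the lowest of the other 3, which lay within 0.10 of each other. All of these values were under the floor, and with values raised to the floor the difference of KRT20 was 0.00.

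KRT19 and KRT20 were the only 2 of the 48 keratins whose value was lowest in CD133- cells by at least 1.5-fold. Of all genes, 0.724% met that rule, which was written after the values were seen. KRT37, a hair shaft keratin, was lowest in CD133- cells by 0.54, just short of the log2 cut of 0.58. Like KRT20, it was under the floor on every array. Without a minimum size, 22 keratins were lowest in CD133- cells, against 26.9% of all genes. Of the 40 keratins with means under the floor 21 were, against 38.0% of all genes under it. A difference between arrays of different sorts cannot be told apart from a difference between the sorts themselves.

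The nearest neighbours of KRT19 and KRT20 in the type I cluster of chromosome 17 had smaller differences in the CD133 comparison. Next to KRT19 lie KRT15 and KRT9, with differences of 0.42 and 0.08 in the CD133 comparison and 0.28 and -0.11 in the ALDH comparison. Next to KRT20 lie KRT12 and KRT23, with -0.01 and 0.43 in the CD133 comparison and 0.82 and -0.33 in the ALDH comparison.

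KRT23 and KRT80 are further keratins, not classed here with those of stratified epithelia and hair. KRT23, a type I keratin, had log2 values of 5.91 in CD133+ and 5.48 in CD133- cells, and of 5.20 in ALDH+ and 5.54 in ALDH- cells. Its differences of 0.43 and -0.33 had the same signs as those of KRT19 and were smaller in size. KRT80, a type II keratin, had 4.39 in CD133+ and 4.12 in CD133- cells, and 4.38 in ALDH+ and 4.11 in ALDH- cells. It differed by 0.27 in both comparisons and lay under the floor throughout.

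At 2-fold, KRT19 was the only keratin higher in CD133+ cells (1 of 48, against 0.620% of all genes), and 0 keratins were lower (0.163% of all genes). In the ALDH comparison 0 keratins were higher at 2-fold (0.430% of all genes) and 0 were lower (0.969%). At 1.5-fold, 4 keratins were higher in CD133+ cells, KRT19, KRT20, KRT37 and KRT16, against 3.18% of all genes, and 1 was lower, KRT222, against 2.01%. At 1.5-fold in the ALDH comparison, 5 keratins were higher in ALDH+ cells, KRT14, KRT1, KRT12, KRT38 and KRT74, against 5.40% of all genes. None was lower by 1.5-fold there, against 5.26% of all genes. Among genes with means under the floor, 2 of 40 keratins were higher by 1.5-fold in CD133+ cells, against 4.39%, and 4 of 40 in ALDH+ cells, against 8.85%. These counts were close to the background of genes under the floor.

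**Figure D2:**
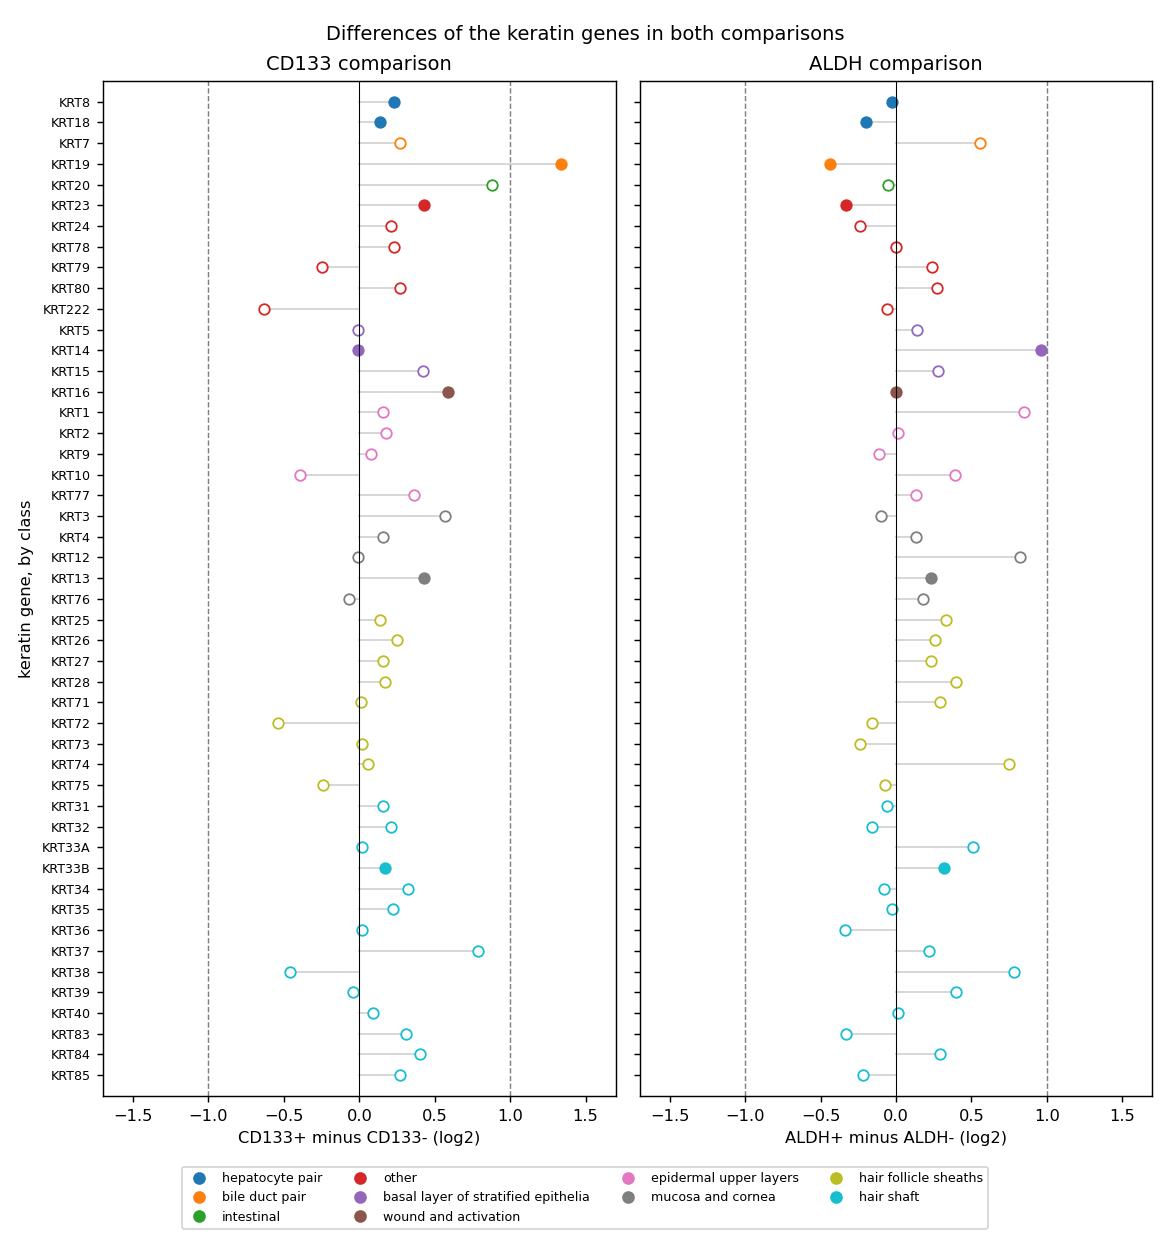
Difference between positive and negative cells (horizontal axis, log2) for each of the 48 keratins (rows, coloured by class) in the CD133 comparison (left) and the ALDH comparison (right); filled points have a mean at or above the floor of 4.98, open points a mean below it, and dashed lines mark 2-fold. KRT19 at 1.34 in the CD133 comparison is the only point beyond a dashed line, and KRT14 at 0.96 comes nearest in the ALDH comparison.

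The keratins as a family had a median difference of 0.17 in the CD133 comparison, where all genes had -0.01, with 37 higher and 11 lower. By any size, 49.0% of all genes were higher in CD133+ cells. Dim genes as a whole lay higher than bright ones in this comparison: genes under the floor had a median of 0.07 and 59.0% of them were higher, and of the 40 keratins under the floor 30 were higher, with a median of 0.16. The 8 keratins at or above the floor had a median of 0.33, where all genes at or above it had -0.04. Of these 8, KRT14 alone was not higher, at -0.01. By any size, 42.7% of all genes at or above the floor were higher in CD133+ cells.

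In the ALDH comparison the 48 keratins had a median of 0.13, where all genes had 0.03, with 27 higher and 21 lower. By any size, 53.8% of all genes were higher in ALDH+ cells. Of the 40 keratins under the floor 24 were higher, against 63.6% of all genes under it, with medians of 0.14 for these keratins and 0.12 for those genes. The 8 keratins at or above the floor had a median of -0.01, with 3 higher and 5 lower. Among the 5 were KRT16, at 4.88 in both fractions, and KRT8, at a difference of -0.03. Of all genes at or above the floor, 52.4% were lower in ALDH+ cells, a share close to that of these 8. Type I and type II keratins had the same median in the CD133 comparison, 0.17, and medians of 0.22 (type I) and 0.13 (type II) in the ALDH comparison.

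**Figure D3:**
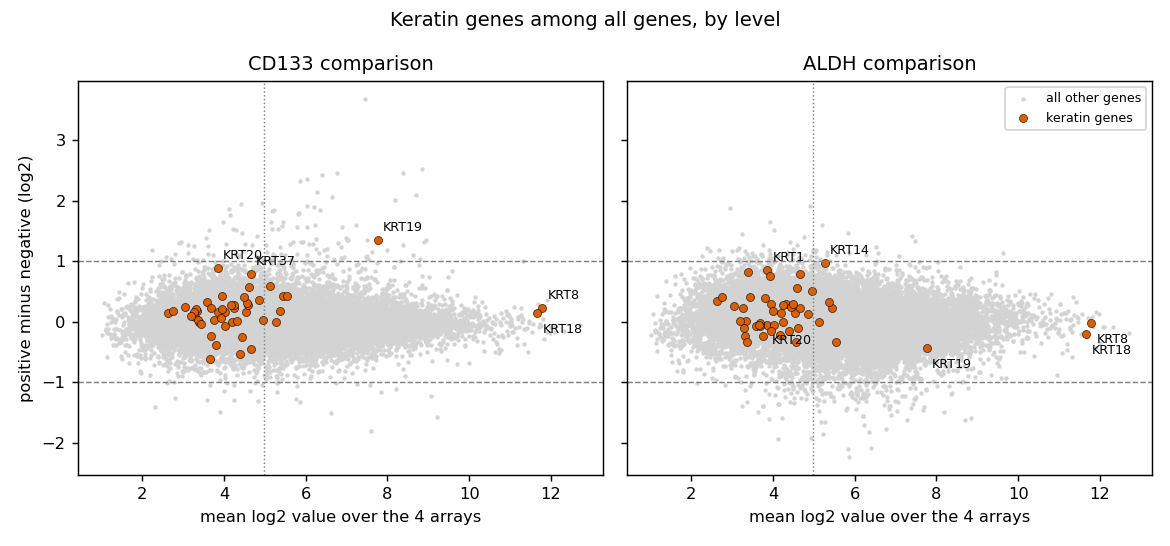
Difference between positive and negative cells (vertical axis, log2) against the mean log2 value over the 4 arrays (horizontal axis) for all 18377 genes (grey) and the 48 keratins (orange), CD133 comparison on the left and ALDH comparison on the right; dashed lines mark 2-fold and the dotted line the floor of 4.98. Most keratins sit left of the dotted line inside the grey cloud, and KRT19 in the CD133 comparison stands above it.

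The 37 measured keratins of stratified epithelia and hair were mostly dim, 33 of them with means under the floor and KRT13, KRT14, KRT16 and KRT33B at or above it. Of the 37, 28 were higher in CD133+ cells, with a median of 0.16, and 24 were higher in ALDH+ cells, with a median of 0.18. Of all genes under the floor, 59.0% were higher in CD133+ and 63.6% in ALDH+ cells, so the ALDH count was close to that background. KRT14, the type I keratin of the basal epidermal layer, was the member with the largest difference in the ALDH comparison, with 5.62 in ALDH+ and 4.66 in ALDH- cells, a difference of 0.96. It had 5.38 in CD133+ and 5.39 in CD133- cells, so the ALDH- array was the low one, by 0.72. With values raised to the floor the ALDH difference was 0.64. Its epidermal partner KRT5 differed by 0.14 in the ALDH comparison and by -0.01 in the CD133 comparison.

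KRT16, a keratin of wounded and activated epidermis, had 5.65 in CD133+ and 5.07 in CD133- cells, a difference of 0.59. It had 4.88 in both fractions of the ALDH comparison. A probe that covers KRT16 together with 3 of its pseudogenes was assigned to no gene. It gave 5.2 in CD133+ and 4.96 in CD133- cells, a difference of 0.24, and 5.56 in ALDH+ and 5.07 in ALDH- cells, a difference of 0.49, so the 2 probes disagree on the ALDH comparison. KRT1, the type II keratin of the upper epidermis, had 4.13 in ALDH+ and 3.28 in ALDH- cells, a difference of 0.85, while KRT10, its type I partner, differed by 0.39. In the CD133 comparison KRT1 differed by 0.16 and KRT10 by -0.39.

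Among mucosal and corneal keratins, KRT12, the type I keratin of the cornea, differed by 0.82 in the ALDH comparison, at 3.75 in ALDH+ and 2.93 in ALDH- cells. Its corneal partner KRT3 differed by -0.10 there and by 0.57 in the CD133 comparison. KRT13, a keratin of inner stratified epithelia, was above the floor on all arrays and differed by 0.43 in the CD133 comparison and 0.23 in the ALDH comparison, and its partner KRT4 by 0.16 and 0.13.

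The 9 keratins of the hair follicle sheaths had medians of 0.06 in the CD133 comparison and 0.26 in the ALDH comparison, and all 9 had means under the floor. KRT74 differed most, at 4.19 in ALDH+ and 3.45 in ALDH- cells. The 14 measured keratins of the hair shaft had medians of 0.19 and -0.01, with 12 of 14 higher in CD133+ and 7 of 14 higher in ALDH+ cells. Over all genes under the floor those shares were 59.0% and 63.6%. KRT37 had the largest difference of this class, at 4.92 in CD133+ and 4.13 in CD133- cells. KRT38, named after its values were seen, differed in sign between the sorts, at -0.46 in the CD133 comparison and 0.78 in the ALDH comparison. KRT222 had the lowest difference of the family in the CD133 comparison, with 3.44 in CD133+ and 4.07 in CD133- cells. Raised to the floor, KRT38 differed by 0.00 in the CD133 comparison and 0.15 in the ALDH comparison, and the differences of KRT1, KRT12, KRT37, KRT74 and KRT222 were all 0.00. Near-identical hair keratins such as KRT33A and KRT33B can share probe signal, and single values of them are uncertain.

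The range of a keratin over the 4 arrays, a description of its spread over fractions, had a median of 0.46, as had the range of all genes. It ran from 0.18 for KRT9 to 1.37 for KRT19, and KRT19 alone had a range of 2-fold or more. CD133+ cells held the highest value of 16 keratins and ALDH+ cells that of 19, while ALDH- cells held that of 10 and CD133- cells that of 3. Over all genes those shares were 17%, 30.9%, 24.0% and 28.1%.

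Across the sorts, which share no array, 26 of 48 keratins had differences of opposite sign, against 46.4% of all genes. KRT19 was among these, as were KRT8, KRT18, KRT20 and KRT23, though -0.03 for KRT8 and -0.05 for KRT20 in the ALDH comparison are close to 0. KRT18 was among them only by its brighter probe, and with the other the count was 25. KRT7 was not, being higher in the positive fraction of both comparisons.

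**Figure D4:**
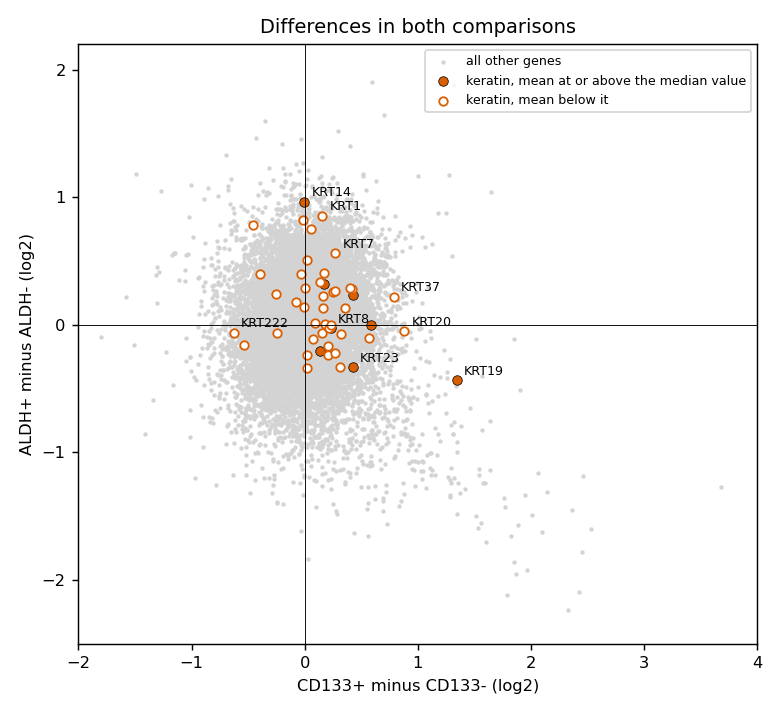
Difference in the ALDH comparison (vertical axis, log2) against the difference in the CD133 comparison (horizontal axis, log2) for all genes (grey) and the 48 keratins; filled orange points have a mean at or above the floor of 4.98 and open ones a mean below it. KRT19 (1.34 and -0.44) is the keratin farthest to the right, with KRT20 (0.88 and -0.05) next, and KRT14 is at the top with 0.96 in the ALDH comparison.

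Keratin filaments end at desmosomes, the junctions that join epithelial cells, and their adhesion and plaque genes were set beside the keratins. Of 17 measured desmosome and cytolinker genes, 15 were higher in CD133+ cells, against 49.0% of all genes, with a median of 0.24, and 11 were lower in ALDH+ cells, against 46.1% of all genes, with a median of -0.24. Among the 17, 6 had means under the floor. Of the other 11, 9 were higher in CD133+ cells, against 42.7% of all genes at or above the floor, with a median of 0.14. Of these 11, 8 were lower in ALDH+ cells, against 52.4% of all genes at or above the floor, with a median of -0.26. None reached 2-fold in either comparison. DST, a linker of filaments to the cell base, had 6.41 in ALDH+ and 7.37 in ALDH- cells, a difference of -0.96, and differed by -0.09 in the CD133 comparison. The desmosomal cadherin DSG2 had 5.97 in ALDH+ and 6.88 in ALDH- cells, a difference of -0.90, and differed by 0.06 in the CD133 comparison. Desmoplakin DSP, which anchors the keratins, differed by 0.24 in the CD133 comparison and -0.47 in the ALDH comparison, and plakophilin PKP2 by 0.40 and -0.26. A further plakophilin, PKP3, was higher in both, by 0.14 and 0.62. DSP, PKP2 and PKP3 were named after their values were seen.

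Other intermediate filament genes had medians of 0.11 in the CD133 comparison and 0.12 in the ALDH comparison over 16 genes. VIM, the gene of the mesenchymal filament vimentin, was the only one at 2-fold, with 9.51 in CD133+ and 8.48 in CD133- cells, a difference of 1.03. It had 8.59 in ALDH+ and 8.62 in ALDH- cells. The high array of VIM was thus CD133+, unlike KRT19, whose CD133- array was low. Keratin binding proteins and proteins of keratin aggregates had medians of -0.07 and 0.02 over 14 genes, none at 2-fold. The small heat shock protein HSPB8 differed most, by 0.94 and -0.43, and the crosslinking enzyme TGM2 by 0.31 and -0.52. With values raised to the floor HSPB8 differed by 0.67 in the CD133 comparison.

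Markers of the epithelia that use KRT7, KRT19 and KRT20 differed mostly in the same direction as KRT19 in both comparisons. The 6 measured bile duct markers other than keratins were all higher in CD133+ cells, against 49.0% of all genes, with a median of 0.56. In ALDH+ cells 4 of 6 were lower, against 46.1% of all genes, with a median of -0.36. The adhesion molecule EPCAM differed by 1.10 and -1.0 and the claudin CLDN4 by 0.92 and -1.08. SOX9, a transcription factor of bile duct cells, differed by 0.14 and 0.28. The water channel AQP1, which like the chloride channel CFTR had a mean under the floor, differed by 0.14 and 0.93, and raised to the floor AQP1 and CFTR were at 0.00 in both comparisons. The summed linear level of all 6 bile duct markers was 1052.9 in CD133+, 608.7 in CD133-, 556.1 in ALDH+ and 813.7 in ALDH- cells. EPCAM, the brightest of them on every array, weighs most in this sum.

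The 9 enterocyte markers were all higher in CD133+ cells, against 49.0% of all genes, with a median of 0.57. In ALDH+ cells 7 of 9 were lower, against 46.1% of all genes, with a median of -0.71. CDX2, a transcription factor of the intestine, had 8.53 in CD133+ and 7.63 in CD133- cells, and 7.90 in ALDH+ and 8.58 in ALDH- cells. The related factor CDX1 was higher in both comparisons, by 0.35 and 0.42. The cadherin CDH17 differed by 2.10 and -1.62, the mucin MUC13 by 2.53 and -1.6 and the disaccharidase SI by 2.45 and -1.78. KRT20, at 0.88 and -0.05, was less low in ALDH+ cells than these 3 genes. The summed linear level of all 9 enterocyte markers was 2944.4 in CD133+, 1360 in CD133-, 1867.1 in ALDH+ and 4086.1 in ALDH- cells. FABP2, the fatty acid binding protein of enterocytes, stayed between 1.85 and 2.45, under the floor. The part of such cells in the keratin values was not tested.

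Of 10 hepatocyte markers 7 were lower in CD133+ cells, against 50.9% of all genes, with a median of -0.40. HP (-1.80) and AHSG (-1.58) were the lowest, while TTR (0.99), CPS1 (0.46) and CYP3A4 (0.03) were higher, as were KRT8 and KRT18. The summed linear level of the 10 was 6982.8 in CD133+, 7357.3 in CD133-, 6886.6 in ALDH+ and 7328.2 in ALDH- cells. ALB and TTR, the brightest of them, make up most of this sum, so it says little of the other markers. In the ALDH comparison their median was 0.05, with 5 higher and 5 lower, and CPS1 at -1.12 was the only one at 2-fold, or -0.37 with values raised to the floor. Keratinocyte markers had medians of 0.09 in both comparisons and 0 of 10 at 2-fold. In the ALDH comparison, where KRT14 differed by 0.96, DSG3 was at -0.86 and SFN at 0.50. DSG3 had a mean under the floor, and with values raised to the floor it was at -0.15 there. The 67 measured keratin-associated proteins of hair had medians of 0.07 and 0.21, and 25 of them had means at or above the floor. At 2-fold, 1 of them was higher in CD133+ cells, KRTAP27-1 (1.25), against 0.620% of all genes. KRTAP19-6 (1.22) and KRTAP24-1 (1.11) were among 3 higher in ALDH+ cells, against 0.430% of all genes. KRTAP5-5, named after its values were seen, was the third. KRTAP19-1 (-1.08) and KRTAP10-10 (-1.07) were the 2 lower there, against 0.969% of all genes. All of these but KRTAP10-10 had means under the floor, and raised to it their differences at 2-fold were 0.00.

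Leukocyte markers had medians of 0.07 and 0.35 over 7 genes and fibroblast markers of 0.16 and 0.07 over 8. The lysozyme gene LYZ, at 7.77 in ALDH+ and 6.44 in ALDH- cells, was the only one of both lists at 2-fold. COL1A2 and COL3A1, the fibroblast markers with the largest differences, were at 0.40 and 0.39 in the CD133 comparison.

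**Figure D5:**
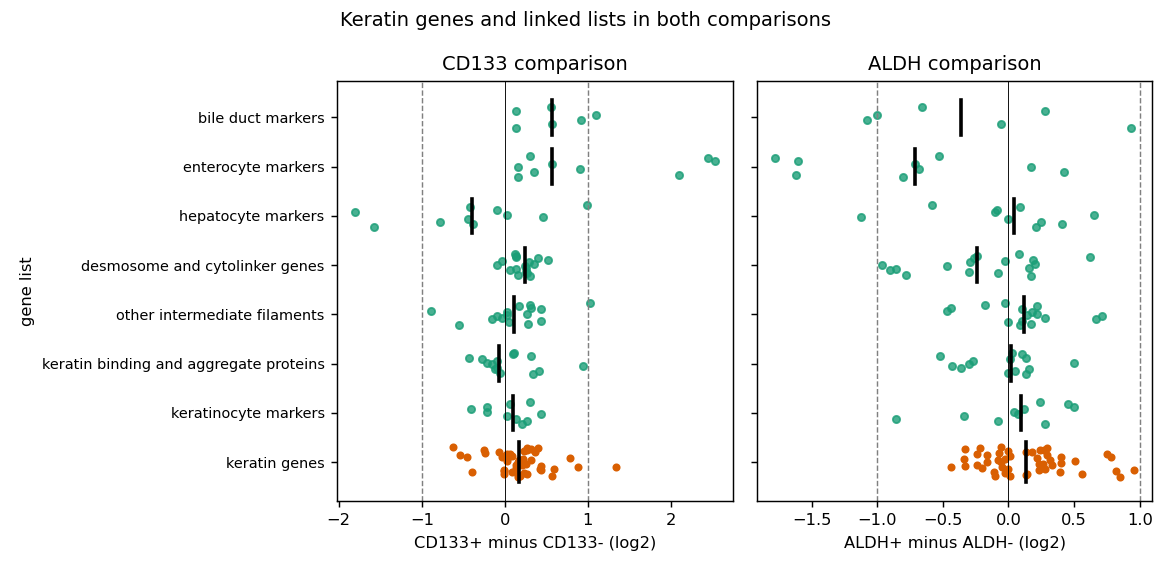
Difference between positive and negative cells (horizontal axis, log2) for the genes of 7 linked lists (green) and the 48 keratins (orange), 1 point per gene, in the CD133 comparison (left) and the ALDH comparison (right); black bars are medians and dashed lines mark 2-fold. Enterocyte markers have medians of 0.57 and -0.71, while keratins have 0.17 and 0.13.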

How the data were processed

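Total RNA of 4 sorted fractions was prepared with Trizol, and biotin was the label, per the labels' protocols. RMA, which is robust multi-array averaging, made the deposited log2 values, per the submitters' processing notes; these ran from 0.556 to 13.5. The software version, genome build and any later filter are not given in the sources used here. RMA brings arrays towards one distribution, which hides shifts shared by most genes and compresses dim differences. Precision is limited by how few arrays there are.

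Of 28869 probes, 19310 had 1 symbol in the platform annotation, 1752 several and 7807 were not listed. A gene took its highest-mean probe, which gave 18377 genes, and the floor was the median of all values. With 1 array per group no test was made and genes were counted at 2-fold, beside the share of all genes. The 48 members and the lists were chosen with earlier results of these data known. Named were KRT7, KRT8, KRT18, KRT19, KRT20, KRT23, KRT80, keratins at 2-fold, the member of each class with the largest difference, and from each list its members at 2-fold (at most 4 a comparison) or, with none, its 2 most different members; other genes were named after their values were seen. Motifs and sequences come from the RefSeq promoter table. Alternatives were another threshold, filters on low values, values raised to the floor, the mean over probes, centring, a second quantile normalization and loess (span 0.4). Count and difference steps were tested on simulated data. Python 3.11.15, pandas 2.3.3 and statsmodels 0.14.6 were used.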

Additional observations from a re-analysis of the deposited data

How the results depend on the processing

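Counts of keratins at 2-fold were 1 higher in the CD133 comparison and 0 otherwise under every alternative run except the 1.5-fold threshold, which gave 4 higher and 1 lower in the CD133 comparison and 5 higher in the ALDH comparison. The family medians of 0.17 and 0.13 moved with the handling of dim genes: over the 8 keratins with means at or above the floor they were 0.33 and -0.01, over the 10 whose brighter array in the CD133 comparison reached it 0.30, and with values raised to the floor 0.00 in both comparisons, since most keratins lie under it. After loess the ALDH median was 0.02. KRT19 kept its 2-fold difference in the CD133 comparison (1.34 to 1.41) and stayed between -0.47 and -0.38 in the ALDH comparison. KRT18 with its other probe, a choice made after the data were seen, gave 0.56 and 0.01. EPCAM fell short of 2-fold with the mean over its probes (0.94 and -0.84), and in the ALDH comparison also after a second quantile normalization (-0.96) and loess (-0.97). KRTAP10-10 raised to the floor was at -0.62 in the ALDH comparison, the other named KRTAP genes at 0.00, and KRTAP24-1 after loess at 0.97. No paired analysis was possible because each group has 1 array and the result comes from no test. The depth of a value over background is not known here, as the files hold no detection call, so differences of genes under the floor are limited by signal.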
